A study of Mus musculus with 60 samples.

Results

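The 5 genes described here are Fam107a, Tmem130, Padi3, Ckb and Wisp2. In untreated cells of 2 mouse mammary lines they differed between cells labelled as PBRM1-depleted and their controls. They were chosen from measured values: each differed at least 2-fold the same way between PBRM1 knockout and control NMuMG cells and between PBRM1 knockdown and control 4T1 cells at 0 h, and none belongs to a gene family described elsewhere for this study. The count tables list 54532 genes for NMuMG and 55487 for 4T1. Of 12331 genes tested in both lines at 0 h, 63 passed the 2-fold criterion, 35 of them higher and 28 lower in the PBRM1-depleted cells, and 33 genes were at least 2-fold apart in opposite ways. Ranked by the smaller of the 2 changes, the genes stand at places 2 (Wisp2), 3 (Fam107a), 5 (Tmem130), 7 (Padi3) and 11 (Ckb) of the 63. Just inside the threshold were Vash1, with log2 fold changes of 1.01 in NMuMG and 1.46 in 4T1, Mmp10 (1.83 and 1.02) and Gm14124 (-7.35 and -1.02). Just outside were Stc2 (-0.997 and -1.12), Als2cr12 (-1.38 and -0.988) and Armcx4 (-4.89 and -0.987). Since the 0 h values chose the genes, they are given below as a description, with no test, and the tests concern libraries that the choice did not use.

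RNA-seq was run on 60 libraries in 20 groups of 3. In NMuMG, a line of non-transformed mouse mammary gland epithelium, cells carrying a guide against PBRM1 (sgPBRM1, knockout) were set beside cells with a control guide (sgCT) at 0, 24, 48 and 72 h of 5 ng/ml TGFβ1. A second NMuMG experiment set cells with a hairpin against ATF3 (shATF3, knockdown) beside vector controls (pLKO) at the same times. In 4T1, a mouse mammary carcinoma line that the labels call triple negative, cells with a hairpin against PBRM1 (shPBRM1) were set beside pLKO cells at 0 h and after 4 days of 5 ng/ml TGFβ1. The 0 h groups were untreated. No NMuMG group was left untreated for 24 to 72 h and no 4T1 group for 4 days, so time in culture and TGFβ1 cannot be told apart in either line. Each genotype is 1 population as far as the labels tell, with no second guide or hairpin and no statement on clones, so guide or population and genotype cannot be told apart either. The labels call the 3 libraries of a group biological replicates without saying whether they came from separate cultures, so the p-values measure the spread between these libraries.

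Library totals were 16.2 to 21.9 M counts in the NMuMG PBRM1 experiment, 15.6 to 22.7 M in the ATF3 experiment and 22.0 to 31.1 M in 4T1. Pbrm1 itself averaged 28.3 ± 1.77 CPM (counts scaled to library size) in shPBRM1 and 236 ± 3.20 CPM in pLKO 4T1 cells at 0 h (SD, n = 3 each). In NMuMG it averaged 97.1 ± 3.36 CPM in sgPBRM1 and 115 ± 0.369 CPM in sgCT cells at 0 h (SD, n = 3 each), and counts over a whole gene do not check a knockout made with a guide. Atf3 went against its label at 0 h, with 12.3 ± 1.44 CPM in the libraries labelled ATF3 knockdown and 9.94 ± 0.820 CPM in pLKO cells (SD, n = 3 each, adjusted p = 0.106). At 24 h it averaged 17.8 CPM in the libraries labelled ATF3 knockdown and 26.9 CPM in pLKO cells (adjusted p = 0.00135), and at 48 h 10.9 against 14.3 CPM, which did not pass (adjusted p = 0.0575). At 72 h it averaged 6.77 against 9.27 CPM, with libraries that overlapped (adjusted p = 0.0326). Atf3 was also lower in the NMuMG PBRM1 knockout. It averaged 5.45 CPM in sgPBRM1 and 11.8 CPM in sgCT cells at 0 h, and 6.45 against 30.9 CPM at 72 h (edgeR quasi-likelihood test, adjusted p = 6.32e-14 and 2.41e-30). In 4T1 it averaged 10.5 CPM in shPBRM1 and 13.4 CPM in pLKO cells at 0 h, but 7.42 against 5.66 CPM after 4 days. The labelled cell type was met by its markers in part, since all 8 simple-epithelial markers reached 1 CPM in each 4T1 group, and 5 or 6 of 8 did in each NMuMG group, where Esrp1 had at most 2 counts and Epcam at most 0.577 CPM per group. Summed leukocyte markers stayed at or under 0.570 CPM, endothelial markers at or under 1.22 CPM and adipocyte markers at or under 0.633 CPM in all 60 libraries.

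PBRM1, also called BAF180, is a subunit with several bromodomains found in PBAF, among the SWI/SNF complexes that move and eject nucleosomes at gene control regions. It is a tumour suppressor, best known from clear cell renal carcinoma. TGFβ1 signals through receptor kinases to SMAD transcription factors and drives NMuMG cells through an epithelial-mesenchymal transition. The 5 genes encode unrelated proteins: an actin-binding stress protein (Fam107a), a membrane glycoprotein (Tmem130), an enzyme that turns arginine into citrulline in proteins (Padi3), a creatine kinase (Ckb) and a secreted matricellular protein (Wisp2).

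The genes lie on 5 chromosomes. In GRCm38 coordinates from the count tables, Fam107a spans chr14:8296274-8318023, Tmem130 chr5:144735915-144761818, Padi3 chr4:140785365-140810648 and Ckb chr12:111669361-111672338, all on the minus strand, and Wisp2 spans chr2:163820861-163833146 on the plus strand. No other gene listed in the NMuMG table overlaps any of them. GENCODE vM21 lists 4 protein-coding transcripts of 3 to 5 exons for Fam107a, 2 of 15 or 16 exons for Padi3, and 1 protein-coding transcript each for Tmem130 (8 exons), Ckb (8 exons) and Wisp2 (5 exons).

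The promoters are shown because a reader may want to see whether the start regions look alike. Each gene was picked for moving the same way in both lines, not for moving with the other genes. RefSeq promoter sequence (GRCm38.p6) was at hand for 4 of the 5 genes, Wisp2 being the one without an entry, and Fam107a has 2 separate starts. Each line gives the 250 bases before the start, read 5′ to 3′ on the gene's strand, with matches to 6 motifs in capitals on either strand. The regions are chr14:8317608-8317857 and chr14:8309780-8310029 for the 2 Fam107a starts, chr5:144761579-144761828 for Tmem130, chr4:140810649-140810898 for Padi3 and chr12:111672339-111672588 for Ckb, all minus strand.
Fam107a, start 1: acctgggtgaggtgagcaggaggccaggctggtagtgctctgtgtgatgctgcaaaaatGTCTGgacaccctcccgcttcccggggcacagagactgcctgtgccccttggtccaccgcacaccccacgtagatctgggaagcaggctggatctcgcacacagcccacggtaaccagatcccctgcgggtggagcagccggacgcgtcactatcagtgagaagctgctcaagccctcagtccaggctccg
Fam107a, start 2: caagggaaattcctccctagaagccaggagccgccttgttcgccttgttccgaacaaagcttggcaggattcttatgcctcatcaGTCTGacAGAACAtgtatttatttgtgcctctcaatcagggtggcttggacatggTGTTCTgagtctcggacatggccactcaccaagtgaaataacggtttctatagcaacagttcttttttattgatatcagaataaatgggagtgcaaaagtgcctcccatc
Tmem130: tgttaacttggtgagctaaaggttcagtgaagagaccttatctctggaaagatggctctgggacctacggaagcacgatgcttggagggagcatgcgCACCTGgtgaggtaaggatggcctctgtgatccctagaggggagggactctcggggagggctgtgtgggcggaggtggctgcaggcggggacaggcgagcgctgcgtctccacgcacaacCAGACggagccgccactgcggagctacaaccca
Padi3: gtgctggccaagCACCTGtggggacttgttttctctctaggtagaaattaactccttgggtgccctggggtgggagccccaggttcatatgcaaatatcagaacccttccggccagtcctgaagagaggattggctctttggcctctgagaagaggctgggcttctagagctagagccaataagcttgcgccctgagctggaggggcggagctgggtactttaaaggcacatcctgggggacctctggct
Ckb: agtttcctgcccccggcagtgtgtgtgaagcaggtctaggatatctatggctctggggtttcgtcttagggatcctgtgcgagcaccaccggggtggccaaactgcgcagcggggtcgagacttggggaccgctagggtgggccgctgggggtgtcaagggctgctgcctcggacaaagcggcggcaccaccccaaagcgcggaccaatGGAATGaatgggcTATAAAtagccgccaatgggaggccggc

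The motifs searched were AP-1 (TGANTCA), TEAD (GGAATG), SMAD (CAGAC), the E-box that ZEB and SNAI factors read (CAGGTG), a glucocorticoid receptor motif (TGTTCT) and the TATA box (TATAAA), on both strands, and no matches overlapped. CAGAC was in 3 of the 5 promoters, both Fam107a starts and Tmem130, and in 42.2% of all 32851 promoters in the table. CAGGTG was in 2 (Tmem130 and Padi3) and in 17.2% of all, and TGANTCA was in 0 of the 5 and in 6.75% of all. The second Fam107a start held TGTTCT at 2 places, 158 to 153 and 110 to 105 bases before the start, where 16.1% of all promoters hold at least 1. Ckb held TATAAA 28 to 23 bases before its start (12.4% of all) and GGAATG 41 to 36 bases before it (12.6% of all). Base composition differed as well: GC content was 62.8% at the first Fam107a start, 60.8% at Tmem130, 62.8% at Ckb, 56% at Padi3 and 45.6% at the second Fam107a start, against a median of 52.4% for all promoters. CpG pairs numbered 16 in Ckb and 13 in Tmem130 but 3 in Padi3, with a median of 6 for all. No motif was in all 5 sequences, and a match is a run of letters, not a bound site.

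Fam107a and Tmem130 were lower in the cells labelled PBRM1 knockout or knockdown, and both stayed lower after TGFβ1 in both lines. Fam107a encodes a short actin-bundling protein, also named DRR1 for its loss in renal cell carcinoma, that is induced by stress and glucocorticoids in brain. In NMuMG sgPBRM1 libraries it had 0.989, 1.04 and 1.89 CPM at 0 h, 6.75, 7.66 and 6.58 CPM at 24 h, and 2.74, 2.83 and 3.50 CPM at 48 h. At 72 h these libraries had 1.99, 1.98 and 2.12 CPM. In sgCT libraries it had 7.45, 7.16 and 5.55 CPM at 0 h, 15.5, 14.6 and 14.4 CPM at 24 h, 8.42, 9.28 and 9.26 CPM at 48 h, then 6.90, 6.29 and 7.71 CPM at 72 h. At 24, 48 and 72 h the knockout libraries lay below the control libraries. Both genotypes peaked at 24 h, when the knockout reached the level of untreated control cells. The log2 fold change was -1.08 ± 0.117 at 24 h, -1.57 ± 0.146 at 48 h and -1.78 ± 0.170 at 72 h (SE; edgeR quasi-likelihood test, adjusted p = 8.91e-12, 4.35e-14 and 1.17e-13), beside -2.35 at 0 h, the contrast that chose it. In bulk RNA, here and below, fewer cells of a type and less RNA per cell cannot be told apart.

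In 4T1 cells Fam107a was near the detection limit before treatment, with 0 counts in each of the 3 shPBRM1 libraries and 1, 2 and 2 counts in the pLKO libraries. Taking 3 counts in the whole group as the limit and the pLKO counts as exact, that is at least 1.70-fold lower. The 2-fold criterion in 4T1 was thus met through the fitted 0 h value of -3.88, which is no bound. After 4 days of TGFβ1 the shPBRM1 libraries held 0.125, 0.268 and 0.129 CPM (4, 7 and 3 counts) and the pLKO libraries 1.38, 1.35 and 0.699 CPM (35, 34 and 16 counts). The groups did not overlap, and the log2 fold change was -2.71 ± 0.410 (SE, adjusted p = 1.17e-06). Fam107a passed the filter on low counts in 4T1 only through the pLKO libraries of day 4, the high side of this comparison, so its being tested already favoured a difference. The call was also made with no filter, which does not undo the choice of the gene at 0 h.

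Tmem130 encodes a little-studied single-pass membrane protein with a PKD domain. In sgPBRM1 libraries it had 0.833, 0.731 and 0.596 CPM at 0 h, 0.425, 0.708 and 0.985 CPM at 24 h, 0.400, 0.767 and 0.395 CPM at 48 h, and 0, 0.165 and 0.168 CPM at 72 h, the last from 0, 3 and 3 counts. In sgCT libraries it had 4.64, 2.39 and 3.28 CPM at 0 h, 2.55, 2.15 and 2.22 CPM at 24 h, 1.38, 1.46 and 1.56 CPM at 48 h, and 1.07, 1.62 and 1.26 CPM at 72 h. The genotypes did not overlap at 24, 48 or 72 h, while the control mean was lower at each later time under TGFβ1. Log2 fold changes were -1.72 ± 0.323 at 24 h, -1.49 ± 0.366 at 48 h and -3.44 ± 0.521 at 72 h (SE, adjusted p = 9.83e-06, 0.000486 and 9.63e-08), beside -2.25 at 0 h. In 4T1 the shPBRM1 libraries held 0.157, 0.153 and 0.129 CPM after 4 days and the pLKO libraries 0.552, 0.515 and 0.524 CPM. These did not overlap either (-1.81 ± 0.489 SE on the log2 scale, adjusted p = 0.00199). No shPBRM1 library held more than 5 counts, so Tmem130 too passed the filter in 4T1 only through the pLKO groups where it was high. This call was also made with no filter, which does not undo the choice of the gene at 0 h. At 0 h the values were 0, 0.213 and 0.167 CPM in shPBRM1 and 0.554, 0.888 and 0.696 CPM in pLKO cells.

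**Figure D1:**
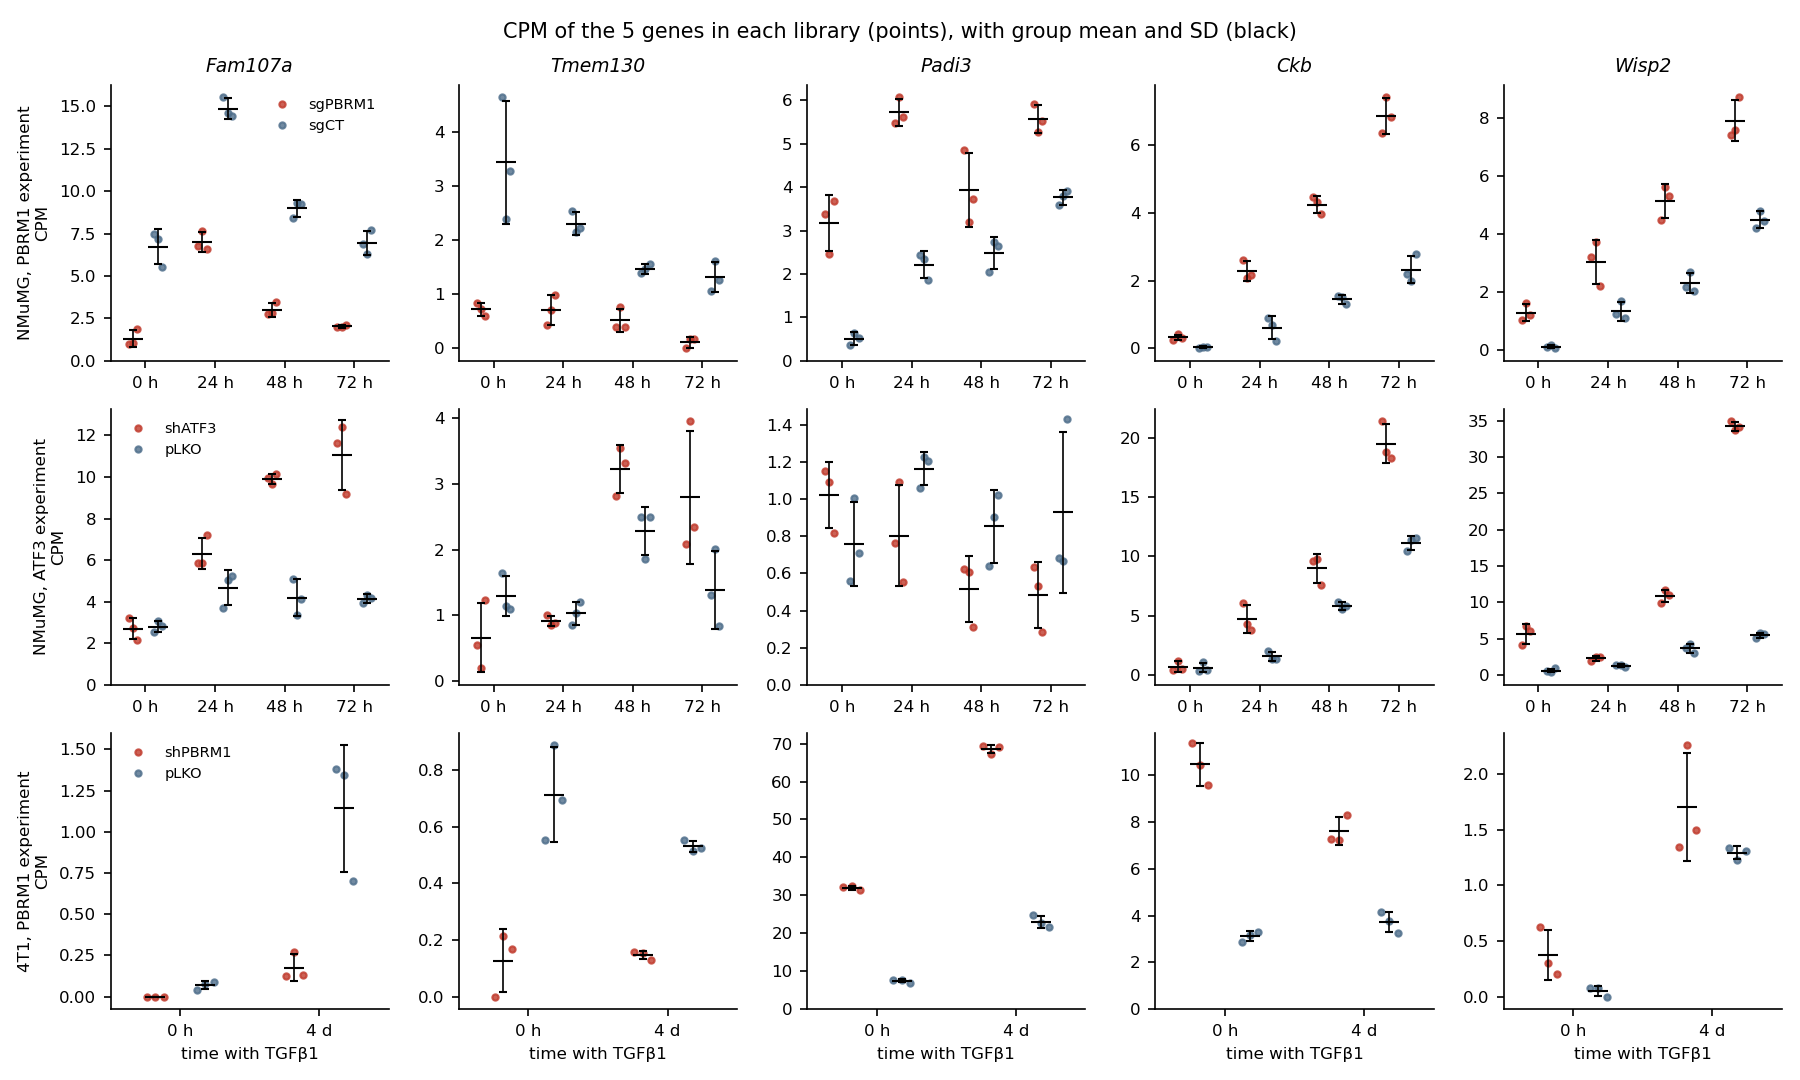
CPM of each gene in every library (points) with the group mean and SD (black), on linear axes that include 0, by time with TGFβ1. The PBRM1-depleted or shATF3 group is drawn left of its control. Fam107a and Tmem130 lie lower and Padi3 and Ckb higher in PBRM1-depleted cells of both lines, whereas in the ATF3 experiment Wisp2 reaches 33.7 to 34.9 CPM in shATF3 libraries at 72 h.

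The other 3 genes were higher in the cells labelled PBRM1 knockout or knockdown. Padi3 encodes a calcium-dependent peptidylarginine deiminase best known from hair follicle and epidermis, where it citrullinates trichohyalin, filaggrin and S100A3. In NMuMG sgPBRM1 libraries it had 3.38, 2.45 and 3.68 CPM at 0 h, 5.48, 6.07 and 5.60 CPM at 24 h, 4.86, 3.19 and 3.73 CPM at 48 h, and 5.92, 5.27 and 5.53 CPM at 72 h. In sgCT libraries it had 0.357, 0.651 and 0.529 CPM at 0 h, 2.44, 2.35 and 1.86 CPM at 24 h, 2.05, 2.73 and 2.65 CPM at 48 h, and 3.58, 3.80 and 3.91 CPM at 72 h. The groups did not overlap at 24, 48 or 72 h, but the control climbed towards the knockout. The log2 fold change was 1.37 ± 0.181 at 24 h, 0.66 ± 0.189 at 48 h and 0.56 ± 0.172 at 72 h (SE, adjusted p = 3.41e-09, 0.00273 and 0.00506), beside 2.62 at 0 h. The 48 h call rests on 1 library: without sgPBRM1 replicate 1 the value was 0.46 with an adjusted p of 0.0675.

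Padi3 CPM was higher in 4T1 than in NMuMG, in tables that were scaled separately. The shPBRM1 libraries held 32.1, 32.4 and 31.4 CPM at 0 h and 69.4, 67.3 and 69.2 CPM after 4 days. The pLKO libraries held 7.67, 7.72 and 6.96 CPM at 0 h and 24.7, 22.7 and 21.5 CPM after 4 days. All 4 groups were separate, which the choice of the gene favoured at 0 h. Untreated shPBRM1 cells, whose high level helped choose the gene, held more Padi3 than TGFβ1-treated control cells. The difference after 4 days was 1.57 ± 0.0495 on the log2 scale (SE, adjusted p = 8.21e-24), beside 2.10 at 0 h.

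Ckb encodes the cytosolic, brain-type creatine kinase, which passes phosphate between ATP and creatine. In sgPBRM1 libraries it had 0.260, 0.418 and 0.298 CPM at 0 h (5, 8 and 6 counts), 2.61, 2.06 and 2.15 CPM at 24 h, 4.46, 4.31 and 3.95 CPM at 48 h, and 6.35, 7.41 and 6.81 CPM at 72 h. In sgCT libraries it had 0, 0.0542 and 0.0529 CPM at 0 h (0, 1 and 1 counts), 0.901, 0.700 and 0.226 CPM at 24 h, 1.55, 1.51 and 1.30 CPM at 48 h, and 2.20, 1.99 and 2.77 CPM at 72 h. The mean was higher at each later time in both genotypes, and the knockout stood above the control by 1.93 ± 0.291 at 24 h, 1.54 ± 0.225 at 48 h and 1.56 ± 0.203 at 72 h on the log2 scale (SE, adjusted p = 1.04e-07, 3.91e-08 and 2.05e-09). At 0 h, 19 counts in knockout and 2 in control libraries gave a ratio of 9.25, with a 95% exact counting interval of 2.23 to 81.9. That interval pools the libraries of each group and covers counting error only. It is no test, since this contrast chose the gene. In 4T1 the shPBRM1 libraries held 11.4, 10.4 and 9.57 CPM at 0 h and 7.28, 7.24 and 8.32 CPM after 4 days, against 2.89, 3.16 and 3.31 CPM and then 4.14, 3.77 and 3.27 CPM in pLKO libraries. The groups stayed apart after 4 days (log2 fold change 1.02 ± 0.117 SE, adjusted p = 3.81e-09), beside 1.74 at 0 h.

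Wisp2, named Ccn5 in the 4T1 table, encodes a secreted CCN protein that lacks the C-terminal domain of its relatives and was first found as a Wnt1-induced gene in mouse mammary cells. In sgPBRM1 libraries it had 1.04, 1.62 and 1.19 CPM at 0 h, 3.19, 3.71 and 2.22 CPM at 24 h, 4.46, 5.61 and 5.31 CPM at 48 h, and 7.41, 7.57 and 8.71 CPM at 72 h. In sgCT libraries it had 0.102, 0.163 and 0.0529 CPM at 0 h (2, 3 and 1 counts), 1.22, 1.70 and 1.09 CPM at 24 h, 2.16, 2.69 and 2.03 CPM at 48 h, and 4.20, 4.80 and 4.46 CPM at 72 h. The knockout ran ahead of the control without overlap at 24, 48 and 72 h. Log2 fold changes were 1.19 ± 0.225 at 24 h, 1.15 ± 0.189 at 48 h and 0.82 ± 0.166 at 72 h (SE, adjusted p = 1.06e-05, 5.88e-07 and 3.37e-05), beside 3.52 at 0 h.

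In 4T1 cells the Wisp2 difference that chose the gene rested on few counts, 14, 7 and 6 in shPBRM1 libraries against 2, 2 and 0 in pLKO libraries at 0 h. After 4 days of TGFβ1 the shPBRM1 libraries held 1.35, 2.26 and 1.50 CPM and the pLKO libraries 1.34, 1.23 and 1.31 CPM. The lowest shPBRM1 library was only just above the highest pLKO library, and the log2 fold change of 0.39 ± 0.258 did not pass the test (SE, adjusted p = 0.210). Without shPBRM1 replicate 2 the value was 0.13.

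Set against all genes, the NMuMG knockout counts are these. At 24, 48 and 72 h, 5 of 5 genes passed an adjusted p of 0.05, 3 higher and 2 lower, where 46.8%, 50% and 49.9% of the 14345 genes tested did. By direction, 23.1%, 24.4% and 24.3% of the genes tested were higher and 23.7%, 25.6% and 25.6% lower. The genotypes did not overlap for 5 of 5 genes at each of these times, as for 53.5%, 55.5% and 54.5% of all genes tested. Averaged over 24, 48 and 72 h the log2 fold changes were -1.48 ± 0.0841 (Fam107a), -2.22 ± 0.238 (Tmem130), 0.86 ± 0.104 (Padi3), 1.68 ± 0.140 (Ckb) and 1.05 ± 0.113 (Wisp2; SE), and the median over all genes was -0.0051. In 4T1 after 4 days 4 of 5 passed, 2 higher and 2 lower, where 55.2% of the 13854 genes tested did (27.8% higher and 27.3% lower). The 2 lower genes, Fam107a and Tmem130, are those that the filter kept for their pLKO libraries alone. The groups did not overlap for 5 of 5 genes, as for 58% of all. Scaled by library totals alone, 61.6% of all 4T1 calls after 4 days were higher, beside 50.5% with TMM factors. No count is given at 0 h, where the genes were chosen for their difference. The treated libraries come from the same cell populations as the 0 h libraries that chose the genes.

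**Figure D2:**
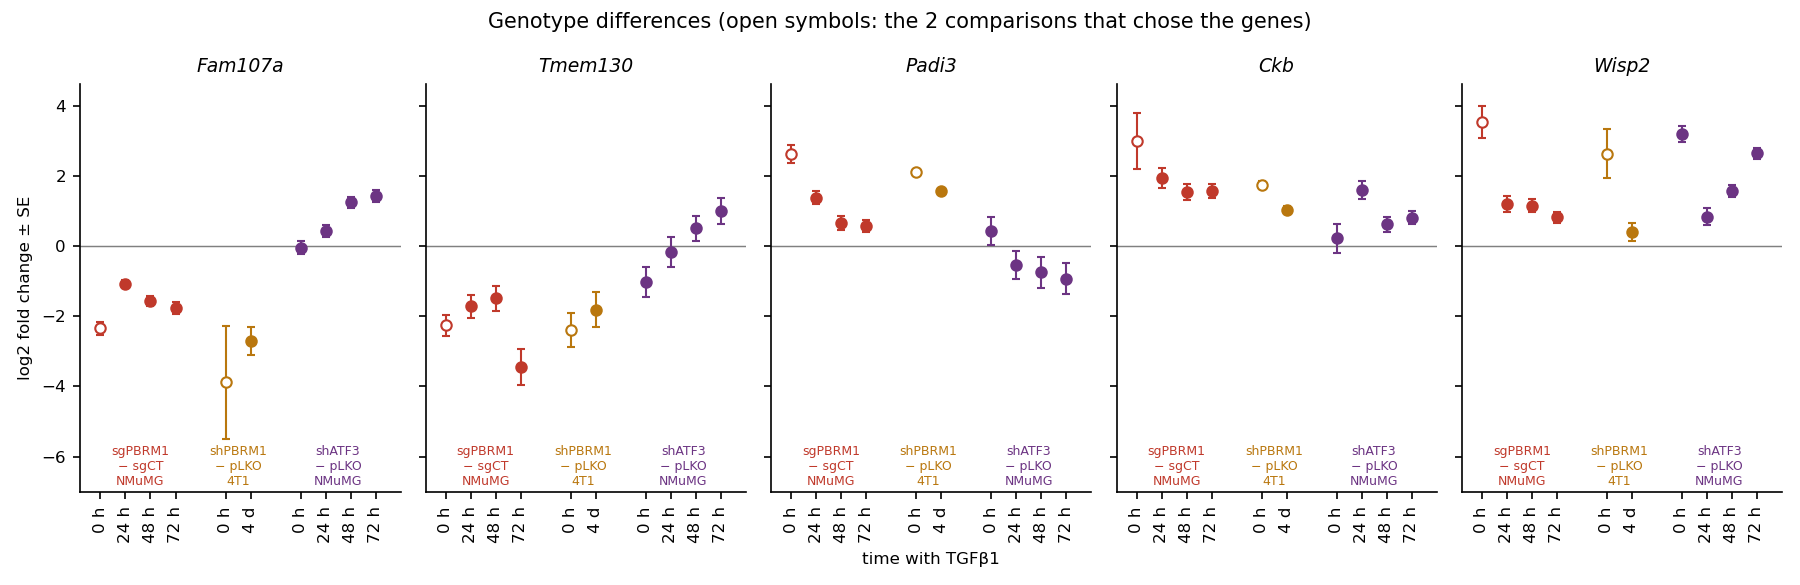
Log2 fold change (± SE) of the 5 genes between genotypes, by time with TGFβ1, in NMuMG (sgPBRM1 - sgCT), 4T1 (shPBRM1 - pLKO) and NMuMG (shATF3 - pLKO); open symbols mark the 2 comparisons that chose the genes. Among the filled symbols of the PBRM1 experiments, Fam107a and Tmem130 lie at -1.08 or lower and the other 3 genes at 0.39 or higher. The value of 0.39, Wisp2 in 4T1, did not pass the test. In the ATF3 experiment Fam107a lies between -0.04 and 1.41.

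Whether the difference between sgPBRM1 and sgCT cells changed during treatment was tested between 24 and 72 h, which leaves the 0 h libraries out. Of the 5 genes, 2 passed, where 26.4% of genes did. The Fam107a difference widened, with a change of -0.69 ± 0.212 (SE, adjusted p = 0.0102), and the Padi3 difference narrowed, with a change of -0.81 ± 0.252 (SE, adjusted p = 0.0117). Tmem130 moved by -1.73 ± 0.680 (adjusted p = 0.0522), Ckb by -0.37 ± 0.364 (adjusted p = 0.511) and Wisp2 by -0.38 ± 0.282 (adjusted p = 0.365; SE). For Fam107a both genotypes fell after 24 h, with log2 changes of -1.78 ± 0.168 in sgPBRM1 and -1.09 ± 0.118 in sgCT cells (SE, adjusted p = 3.40e-14 and 6.47e-12). The Tmem130 change passed without sgPBRM1 24 h replicate 1 (-2.00, adjusted p = 0.0273) or sgCT 72 h replicate 1 (-1.86, adjusted p = 0.0444), and on library totals alone (-1.76, adjusted p = 0.0450). For Padi3 the knockout stood at -0.04 ± 0.160 (adjusted p = 0.855) while the control rose by 0.77 ± 0.195 (adjusted p = 0.000595). The same differences counted from 0 h contain the contrast that chose the genes, so they carry no test. At 72 h they were 0.57 (Fam107a), -1.19 (Tmem130), -2.06 (Padi3), -1.42 (Ckb) and -2.71 (Wisp2), and in 4T1 after 4 days 1.17, 0.58, -0.52, -0.72 and -2.24 in the same order of genes.

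The genes also differed between times of TGFβ1. The 0 h libraries are those that chose the genes, so values against 0 h are given as a description, with no test, and the test is that of 72 h against 24 h. At 72 h Wisp2 stood 2.62 ± 0.199 above 0 h in sgPBRM1 and 5.32 ± 0.357 above in sgCT cells, and Ckb 4.37 ± 0.280 above in sgPBRM1 cells (SE, log2). In sgCT cells Ckb had 113 counts at 72 h and 2 at 0 h, a ratio of 66.2 with a 95% exact counting interval of 17.9 to 553. That interval pools the libraries of each group, covers counting error only and is no test. Padi3 stood 0.81 ± 0.172 above 0 h in sgPBRM1 and 2.87 ± 0.264 in sgCT cells, and Tmem130 at -2.58 ± 0.574 in sgPBRM1 and -1.38 ± 0.280 in sgCT cells (SE, log2). Fam107a stood at 0.62 ± 0.230 in sgPBRM1 and 0.05 ± 0.133 in sgCT cells (SE, log2), and the value in sgPBRM1 cells was 0.99 without 0 h replicate 3 and 0.44 on library totals alone, a scaling that shifted the median of all genes by up to -0.19 in comparisons with 0 h. Between 24 and 72 h, Ckb rose 1.59 ± 0.201 in sgPBRM1 and 1.96 ± 0.294 in sgCT cells, and Wisp2 1.37 ± 0.175 in sgPBRM1 and 1.75 ± 0.213 in sgCT cells (SE). In that interval 2 genes rose and 2 fell in sgPBRM1 cells, where 60.1% of genes passed (31.4% higher, 28.7% lower), and 3 rose and 2 fell in sgCT cells, where 55% passed (27.7% higher, 27.3% lower). The Tmem130 fall in sgCT cells, -0.80 ± 0.291 (SE, adjusted p = 0.0163), was lost without 24 h replicate 1 (adjusted p = 0.0564) or 72 h replicate 1 (adjusted p = 0.0783).

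In 4T1 the values after 4 days are likewise set beside the 0 h libraries that chose the genes, with no test. A gene chosen for standing high in shPBRM1 cells at 0 h is favoured by that choice to stand lower later, and one chosen for standing low to stand higher. Ckb stood at -0.46 ± 0.0974 relative to 0 h in shPBRM1 and at 0.26 ± 0.139 in pLKO cells (SE, log2). Padi3 stood at 1.10 ± 0.0470 in shPBRM1 and 1.62 ± 0.0704 in pLKO cells, and Wisp2 at 2.22 ± 0.332 in shPBRM1 and 4.46 ± 0.527 in pLKO cells (SE, log2). Fam107a was at least 4.35-fold higher after 4 days in shPBRM1 cells, where it had 0 counts at 0 h, and stood at 4.00 ± 0.510 on the log2 scale in pLKO cells (SE). Tmem130 stood at 0.16 ± 0.661 in shPBRM1 and -0.42 ± 0.358 in pLKO cells (SE, log2).

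The ATF3 experiment took no part in the choice of genes, and there Wisp2 had the widest genotype difference of the 5 genes at 0, 48 and 72 h and Fam107a was higher from 48 h on. Wisp2 was higher in the libraries labelled ATF3 knockdown at every time, with 4.16, 6.75 and 6.03 CPM at 0 h, 1.88, 2.49 and 2.49 CPM at 24 h, 9.96, 11.7 and 11.0 CPM at 48 h, and 34.9, 33.7 and 34.1 CPM at 72 h. In pLKO libraries it had 0.514, 0.437 and 0.930 CPM at 0 h, 1.43, 1.36 and 1.05 CPM at 24 h, 3.67, 4.30 and 3.06 CPM at 48 h, and 5.08, 5.74 and 5.60 CPM at 72 h. The groups did not overlap at any time, and the 72 h shATF3 libraries held the highest Wisp2 CPM of the 60 libraries, with the 3 tables scaled separately. Log2 fold changes were 3.20 ± 0.232 at 0 h, 0.84 ± 0.239 at 24 h, 1.56 ± 0.167 at 48 h and 2.64 ± 0.155 at 72 h (SE, adjusted p = 1.38e-11, 0.00779, 4.25e-08 and 4.47e-13). Without pLKO replicate 3 the 24 h value was 0.70 with an adjusted p of 0.0531. Over the first 24 h Wisp2 fell in shATF3 cells, with a change of -1.30 ± 0.190, and rose in pLKO cells, with 1.05 ± 0.296 (SE, log2), and this difference in response was -2.36 ± 0.352 (SE, adjusted p = 1.39e-05). At 48 h it was -1.64 ± 0.301 (adjusted p = 0.000345) and at 72 h -0.55 ± 0.296 (adjusted p = 0.260; SE).

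Fam107a started level in the ATF3 experiment and then separated upwards, against its direction in the PBRM1 experiments. In shATF3 libraries it had 3.21, 2.76 and 2.17 CPM at 0 h, 5.86, 5.89 and 7.19 CPM at 24 h, 9.96, 9.64 and 10.1 CPM at 48 h, and 11.6, 12.4 and 9.18 CPM at 72 h. In pLKO libraries it had 2.52, 3.06 and 2.84 CPM at 0 h, 3.71, 5.04 and 5.26 CPM at 24 h, 5.10, 3.34 and 4.14 CPM at 48 h, and 3.94, 4.35 and 4.17 CPM at 72 h. The groups overlapped at 0 h and were apart from 24 h on. The genotype difference was -0.04 ± 0.195 at 0 h, 0.44 ± 0.173 at 24 h (adjusted p = 0.0558, or 0.0459 without pLKO replicate 3), 1.24 ± 0.169 at 48 h and 1.41 ± 0.170 at 72 h (SE, log2; adjusted p = 2.20e-06 and 2.38e-07 for the last pair of times). Its change from 0 h was larger in shATF3 than in pLKO cells by 1.28 ± 0.259 at 48 h and 1.46 ± 0.259 at 72 h (SE, adjusted p = 0.000922 and 0.000194).

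Of the other 3 genes, Ckb was higher from 24 h on, Tmem130 turned its sign between 0 and 72 h and Padi3 passed at no time. Ckb in shATF3 libraries was 0.401, 1.19 and 0.469 CPM at 0 h (8, 25 and 8 counts) and 18.4 to 21.5 CPM at 72 h. In pLKO libraries it was 0.327, 1.05 and 0.383 CPM at 0 h (7, 24 and 7 counts) and 10.5 to 11.6 CPM at 72 h. Replicate 2 was the highest at 0 h in both genotypes. The genotypes overlapped at 0 h and differed by 1.59 ± 0.269 at 24 h, 0.62 ± 0.212 at 48 h and 0.81 ± 0.194 at 72 h (SE, log2, adjusted p = 3.43e-05, 0.0306 and 0.00197), but the 48 h call was lost without pLKO replicate 1, 2 or 3 or shATF3 replicate 1 or 2, at adjusted p of 0.0536 to 0.107. Tmem130 had 0.551, 0.190 and 1.23 CPM in shATF3 and 1.64, 1.14 and 1.09 CPM in pLKO libraries at 0 h. These overlapped, and the difference of -1.02 ± 0.424 did not pass (SE, log2, adjusted p = 0.0607), but it did by DESeq2 (-1.02, adjusted p = 0.0396) and without shATF3 replicate 3 (-1.79, adjusted p = 0.00348). The difference was -0.18 ± 0.425 at 24 h and 0.50 ± 0.344 at 48 h (SE, log2, adjusted p = 0.805 and 0.326). At 72 h Tmem130 had 2.09, 3.95 and 2.34 CPM in shATF3 and 1.31, 2.01 and 0.834 CPM in pLKO libraries, a difference of 1.00 ± 0.368 (SE, adjusted p = 0.0388). That call was lost in a fit of the 2 groups alone (adjusted p = 0.0881) and without shATF3 replicate 2 (0.67, adjusted p = 0.235), pLKO replicate 1 (0.96, adjusted p = 0.0986) or pLKO replicate 3 (0.75, adjusted p = 0.167). The change in the Tmem130 difference over 72 h was 2.02 ± 0.561 (SE, adjusted p = 0.0144). Padi3 stayed at or under 1.43 CPM in all 24 libraries, and no genotype difference passed at 0, 24, 48 or 72 h, with values of 0.43 ± 0.397, -0.54 ± 0.403, -0.75 ± 0.436 and -0.94 ± 0.442 (SE, log2, adjusted p = 0.440, 0.346, 0.233 and 0.114). In all, 1, 2, 3 and 4 of the 5 genes passed at 0, 24, 48 and 72 h, each as higher, where 37%, 31.8%, 25.6% and 30.5% of the 14983 genes tested did, and 18.6%, 15.2%, 11.8% and 15.6% of the genes tested were higher. The libraries were apart for 1, 3, 5 and 5 genes, as for 47.9%, 44.5%, 42.4% and 36.4% of all genes. In pLKO cells 3 genes, Ckb, Wisp2 and Fam107a, were higher at 72 h than at 0 h, where 58% of genes passed (28.9% higher). In shATF3 cells 4 genes were higher and Padi3 lower at 72 h than at 0 h, where 54.4% passed (27.8% higher, 26.6% lower). The Padi3 change, -1.09 ± 0.433 (SE, adjusted p = 0.0357), was lost without 0 h replicate 1 or 2 or 72 h replicate 2 or 3, at adjusted p of 0.0598 to 0.159. The Fam107a rise in pLKO cells, 0.56 ± 0.188 (SE, adjusted p = 0.0121), was 0.40 on library totals alone (adjusted p = 0.0612).

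Levels between genes were compared as CPM per kilobase of exon. In NMuMG sgPBRM1 cells at 72 h the order was Wisp2 (4.11), Ckb (2.37), Padi3 (1.62), Fam107a (0.525) and Tmem130 (0.0381). In sgCT cells at 72 h it was Wisp2 (2.33), Fam107a (1.80), Padi3 (1.09), Ckb (0.801) and Tmem130 (0.454). In 4T1 Padi3 led at 19.9 in shPBRM1 and 6.67 in pLKO cells after 4 days, and Fam107a stood at 0.0450 in shPBRM1 and 0.295 in pLKO cells. Across the 8 groups of the NMuMG PBRM1 experiment, neighbours in the order of levels overlapped in 2 of 7 pairs for Fam107a and Ckb, 3 for Wisp2, 4 for Tmem130 and 5 for Padi3.

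Each gene was then set beside the 2 nearest genes on either side that were tested in at least 1 PBRM1 experiment. Acox2, a peroxisomal branched-chain acyl-CoA oxidase whose gene lies 36.9 kb from Fam107a, was lower in both lines, as Fam107a was. Acox2 averaged 5.95 ± 1.98 CPM in sgPBRM1 and 21.8 ± 1.16 CPM in sgCT cells at 72 h, and 3.73 ± 0.333 CPM in shPBRM1 and 19.4 ± 1.64 CPM in pLKO 4T1 cells after 4 days (SD, n = 3 each). Its log2 fold changes were -1.52 ± 0.108, -1.76 ± 0.121 and -1.88 ± 0.125 at 24, 48 and 72 h and -2.38 ± 0.105 in 4T1 (SE, adjusted p = 1.71e-18, 2.56e-19, 6.29e-20 and 1.20e-19). At 0 h it stood at -1.98 in NMuMG and -0.81 in 4T1, so it fell short of the 2-fold criterion in 4T1. In the ATF3 experiment Acox2 was higher in shATF3 than in pLKO cells, by 0.87 ± 0.147 at 24 h, 1.18 ± 0.158 at 48 h and 1.24 ± 0.159 at 72 h (SE, log2, adjusted p = 3.32e-05, 1.74e-06 and 6.48e-07). The next gene on that side, Kctd6, 72.7 kb from Fam107a, changed by -0.42 ± 0.104 in NMuMG at 72 h and -0.27 ± 0.0848 in 4T1 (SE, adjusted p = 0.000466 and 0.00675).

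Padi1, another deiminase 2.34 kb from Padi3, shared the direction of Padi3 at 0 h in both lines and after 4 days in 4T1, but not in treated NMuMG cells. At 0 h it averaged 7.80 ± 0.191 CPM in sgPBRM1 and 3.12 ± 0.351 CPM in sgCT cells, and 99.8 ± 4.20 CPM in shPBRM1 and 48.4 ± 0.439 CPM in pLKO 4T1 cells (SD, n = 3 each). Its log2 fold changes there were 1.32 and 1.04, so it met the 2-fold criterion too. It averaged 2.31 CPM in sgPBRM1 and 4.95 CPM in sgCT cells at 72 h (log2 difference -1.09 ± 0.182 SE, adjusted p = 8.85e-07), but 56.4 CPM in shPBRM1 and 31.6 CPM in pLKO 4T1 cells after 4 days (0.83 ± 0.0468 SE, adjusted p = 1.05e-16). Padi4, 11.1 kb away on the other side, had 0 counts at 72 h in NMuMG and 274 CPM in shPBRM1 against 270 CPM in pLKO 4T1 cells (0.02 ± 0.0274 SE, adjusted p = 0.490). Around Tmem130, Ckb and Wisp2 no tested neighbour moved by more than 0.60 on the log2 scale in NMuMG at 72 h or in 4T1 after 4 days. That value was Trmt61a, a tRNA methyltransferase subunit gene 5.77 kb from Ckb, in 4T1 (0.60 ± 0.0921 SE, adjusted p = 1.18e-06), where the NMuMG value at 72 h was -0.25 ± 0.0972 (SE, adjusted p = 0.0267). At 0 h Gm36635, a gene 30.7 kb from Ckb at under 1 CPM, was at 0.99 ± 0.389 in 4T1 (SE, log2, adjusted p = 0.0331).

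**Figure D3:**
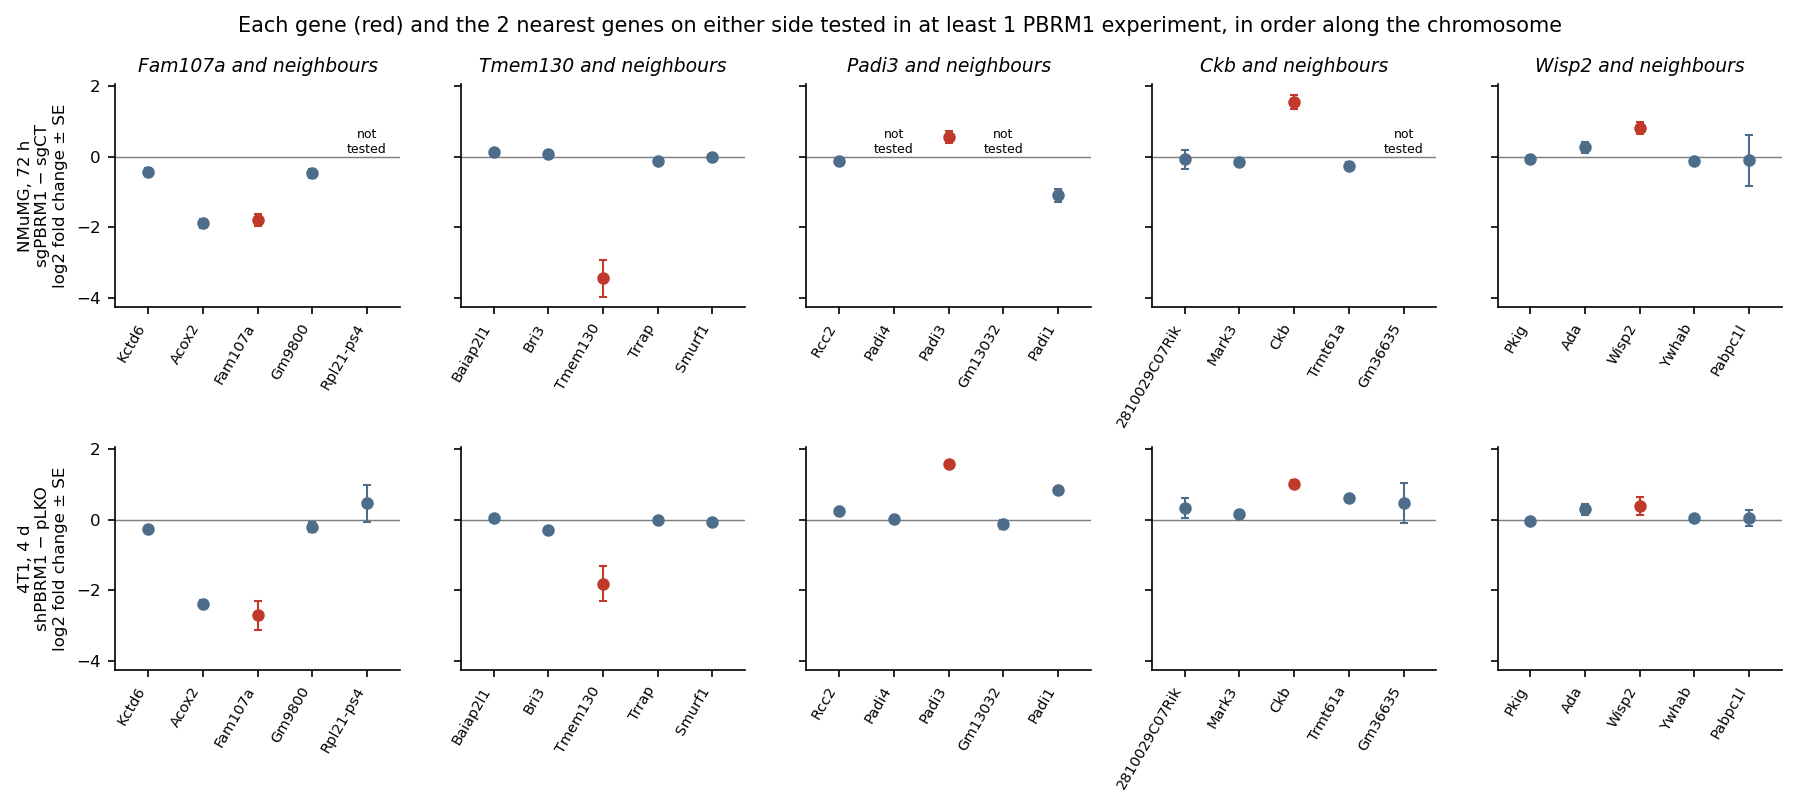
Log2 fold change (± SE) of each gene (red) and its 2 nearest tested genes on either side (blue), in chromosome order, for NMuMG at 72 h (sgPBRM1 - sgCT, top) and 4T1 after 4 days (shPBRM1 - pLKO, bottom). Acox2 lies beside Fam107a in both rows, at -1.88 and -2.38, whereas Padi1 changes sign between rows.

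Relatives of the 5 genes were read from lists of families and partners. Fam107b, the other FAM107 gene, averaged 43.5 CPM in sgPBRM1 and 56.1 CPM in sgCT cells at 72 h (-0.37 ± 0.0555 SE, adjusted p = 1.03e-07), and 166 CPM in both shPBRM1 and pLKO 4T1 cells after 4 days. At 0 h it stood at -0.65 ± 0.0476 in NMuMG and 0.15 ± 0.0323 in 4T1 (SE, log2). The other deiminases turned with treatment in NMuMG. At 0 h, 2 of 2 tested in NMuMG and 3 of 3 in 4T1 were higher, as Padi3 was, where 45.1% and 51% of all genes passed in either direction, and their medians were 0.94 and 0.30 on the log2 scale. At 72 h both in NMuMG were lower, where 49.9% of all genes passed, Padi1 as above and Padi2 at -0.62 ± 0.0757, beside 0.56 ± 0.0389 at 0 h (SE, log2, adjusted p = 3.83e-10 and 5.78e-19). In 4T1 after 4 days Padi2 was lower, at -0.20 ± 0.0435, beside 0.26 ± 0.0533 at 0 h (SE, log2, adjusted p = 0.000188 and 0.000103), and Padi1 was higher. Tmem130 shares its PKD domain with Gpnmb and Pmel, and only Gpnmb in 4T1 passed the filter, at 0.664 ± 0.263 CPM in shPBRM1 and 2.95 ± 0.406 CPM in pLKO cells (SD, n = 3 each; log2 fold change -2.17 ± 0.240 SE, adjusted p = 1.79e-09). Gpnmb was already lower at 0 h, at -1.02 ± 0.257 (SE, log2, adjusted p = 0.00114). Of the tested genes of creatine supply, Gamt, which makes creatine, was lower, at -0.82 ± 0.200 in NMuMG and -0.61 ± 0.101 in 4T1 (SE, adjusted p = 0.000445 and 3.76e-06), beside -0.27 ± 0.169 and -0.26 ± 0.102 at 0 h (SE, adjusted p = 0.203 and 0.0340). Gatm, which makes its precursor, was at -0.80 ± 0.167 in 4T1 (SE, adjusted p = 0.000113). The creatine transporter Slc6a8 changed by -0.11 ± 0.0341 in NMuMG (SE, adjusted p = 0.00454) and by 0.00 ± 0.0443 in 4T1 (SE, adjusted p = 0.951). Among the CCN genes, Cyr61 was lower in both, at -0.19 ± 0.0301 in NMuMG and -0.98 ± 0.0299 in 4T1. Ctgf was higher in NMuMG (0.45 ± 0.0246) and lower in 4T1 (-0.66 ± 0.0314; SE, adjusted p at most 1.63e-07). Nov, tested in 4T1, was higher there (1.69 ± 0.191 SE, adjusted p = 3.06e-09), and Wisp1 was lower in 4T1 (-0.83 ± 0.0555 SE, adjusted p = 9.94e-15). At 0 h Wisp1 was lower in both lines, at -1.24 ± 0.0354 in NMuMG and -0.32 ± 0.0846 in 4T1 (SE, log2, adjusted p = 5.52e-37 and 0.00171), and Ctgf kept its direction in each line, at 0.26 ± 0.0267 and -0.24 ± 0.0338 (SE, log2, adjusted p at most 3.22e-07).

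**Figure D4:**
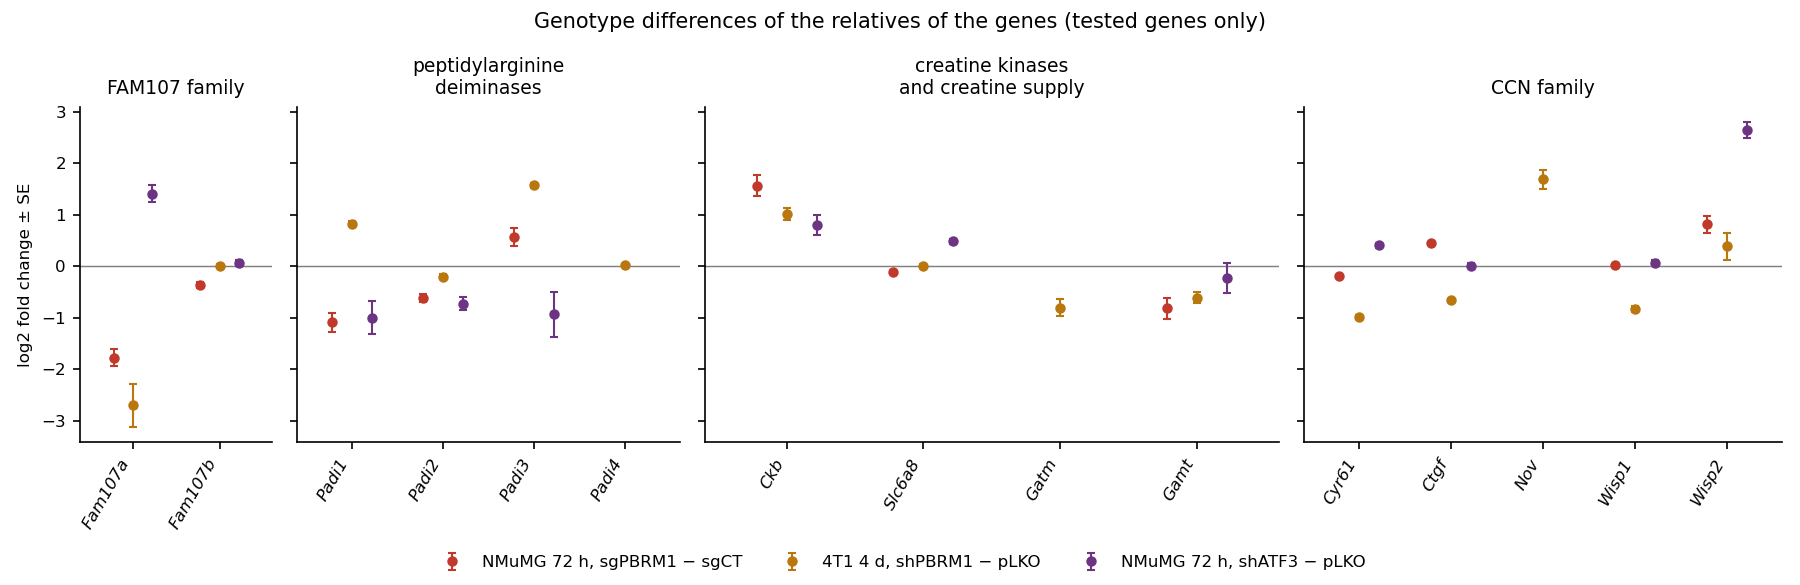
Log2 fold change (± SE) of the tested family members and partners of Fam107a, Padi3, Ckb and Wisp2 for NMuMG at 72 h (sgPBRM1 - sgCT), 4T1 after 4 days (shPBRM1 - pLKO) and NMuMG at 72 h (shATF3 - pLKO). Padi1 lies at -1.09 in NMuMG and 0.83 in 4T1, Ctgf at 0.45 and -0.66, and genes with at most 3 counts in both groups are left out.

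Partner lists gave mixed counts. Of 10 genes for Padi3 substrates and the cornified envelope, 5 were tested in NMuMG. At 0 h, where the Padi3 difference was widest, 1 of the 5 was higher and 0 lower with a median of -0.17 on the log2 scale, where 45.1% of all genes passed. At 72 h 3 were higher and 1 lower with a median of 1.02, where 49.9% of all genes passed (24.3% higher, 25.6% lower). Ivl, involucrin, stood at -0.21 ± 0.145 at 0 h (SE, log2, adjusted p = 0.239), and at 72 h it averaged 261 ± 10.6 CPM in sgPBRM1 and 70.8 ± 0.817 CPM in sgCT cells (SD, n = 3 each; log2 fold change 1.88 ± 0.0454 SE, adjusted p = 5.64e-41). Sprr1a, another envelope precursor, averaged 635 ± 50.3 CPM in sgPBRM1 and 312 ± 38.4 CPM in sgCT cells (1.02 ± 0.0614 SE, adjusted p = 7.49e-22), and was the 1 higher gene at 0 h (0.94 ± 0.0628 SE, adjusted p = 1.42e-19). Lor, loricrin, was higher by 1.36 ± 0.241 (SE, adjusted p = 3.01e-06), and S100a3, the Padi3 substrate of the hair cuticle, was lower, at -1.16 ± 0.223 (SE, adjusted p = 1.20e-05). Trichohyalin and filaggrin, the other substrates, did not pass the filter in NMuMG, and Flg had 0 counts in both genotypes. In 4T1 4 of the 10 were tested. At 0 h none passed edgeR's test, where 51% of all genes did, and the nearest was keratin 10, Krt10 (0.43 ± 0.184 SE, adjusted p = 0.0510). After 4 days 0 were higher and 1 lower, where 55.2% passed. The lower one was the transglutaminase Tgm1, at -1.17 ± 0.369 (SE, adjusted p = 0.00766), and Ivl had 0 counts in both groups.

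For glucocorticoid targets, listed because Fam107a is one in brain, the counts turned between untreated and treated cells. Of 8 tested genes, 0 were higher and 3 lower in NMuMG at 0 h and 3 higher and 1 lower at 72 h, where 45.1% and 49.9% of all genes passed. In 4T1 5 were higher and 1 lower at 0 h, and 2 higher and 4 lower after 4 days, where 51% and 55.2% of all genes passed. Tsc22d3, the leucine zipper gene used as a glucocorticoid readout, was higher by 0.53 ± 0.0776 in NMuMG at 72 h and lower in 4T1 after 4 days, at -0.80 ± 0.0656 (SE, adjusted p = 4.73e-08 and 1.50e-12). At 0 h it was lower in both, at -0.68 ± 0.0697 in NMuMG and -1.06 ± 0.0741 in 4T1 (SE, log2, adjusted p = 2.37e-12 and 3.74e-14). For Wnt targets, listed because of Wisp2, 2 of 6 were higher and 1 lower in NMuMG at 0 h, where 45.1% of all genes passed. At 72 h 2 were higher and 2 lower, where 49.9% passed. In 4T1 2 of 5 were higher and 1 lower at 0 h, where 51% of all genes passed. After 4 days 3 were higher and 1 lower, where 55.2% passed. Lef1, a Wnt-responsive transcription factor, did not pass at 0 h, at -1.85 ± 1.06 in NMuMG and 0.63 ± 0.281 in 4T1 (SE, log2, adjusted p = 0.156 and 0.0607), and was higher later in both. It had 2.32 ± 0.478 CPM in sgPBRM1 and 0.432 ± 0.0617 CPM in sgCT cells at 72 h (a log2 difference of 2.40 ± 0.412 SE, adjusted p = 1.50e-06). In 4T1 after 4 days it had 2.94 ± 0.186 CPM in shPBRM1 and 1.82 ± 0.315 CPM in pLKO cells (0.69 ± 0.189 SE, adjusted p = 0.00236; SD, n = 3 each). Axin2, a direct Wnt target, was higher in NMuMG at 72 h by 0.61 ± 0.155 (SE, adjusted p = 0.000674), beside -0.35 ± 0.260 at 0 h (SE, adjusted p = 0.282), and did not pass the filter in 4T1. Lef1 and Axin2 are the 2 higher Wnt targets in NMuMG at 72 h, and the 2 lower ones are not shown. Of the estrogen-responsive genes, 2 of 3 were higher and 0 lower in NMuMG at 0 h, where 45.1% of all genes passed. At 72 h 2 were higher and 1 lower, where 49.9% passed. In 4T1 3 of 3 were higher at 0 h and 2 after 4 days, where 51% and 55.2% passed. Greb1, an estrogen receptor cofactor, had 0.939 ± 0.0638 CPM in sgPBRM1 and 0.409 ± 0.167 CPM in sgCT cells at 72 h (SD, n = 3 each; 1.18 ± 0.442 SE, adjusted p = 0.0225). The medians of the glucocorticoid, Wnt and estrogen lists at 0 h were -0.03, -0.20 and 0.10 in NMuMG and 0.18, 0.34 and 0.54 in 4T1. In NMuMG at 72 h they were 0.07, 0.06 and 0.67 on the log2 scale, and in 4T1 after 4 days -0.12, 0.17 and 0.24, beside -0.0027 and 0.0060 over all genes.

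Likeness over the 12 groups of the PBRM1 experiments was measured as Pearson r of log2 CPM group means, each experiment centred, over 11288 genes. The nearest pattern to Fam107a was that of its neighbour Acox2 (r = 0.952, Spearman rho 0.944), followed by Il18rap (0.943) and Pitpnm1 (0.927). For Tmem130 they were Zfp653 (0.958), Mapk8ip1 (0.950) and Cul4b (0.949), for Padi3 Invs (0.953), Selenon (0.952) and Ubn2 (0.943), for Ckb Afap1 (0.983), Sh3kbp1 (0.970) and Zhx3 (0.970), and for Wisp2 Sun1 (0.974), Zbtb5 (0.973) and Vps41 (0.972). By Spearman rho Acox2 and Sh3kbp1 ranked 1 for their genes, but Ubn2 ranked 74, Sun1 44 and Afap1 32.5. The group means share libraries, scaling and time order, so r is a description of 12 points. Between the 5 genes it was 0.88 for Padi3 and Wisp2, 0.81 for Ckb and Wisp2 and 0.75 for Padi3 and Ckb, but 0.61 for Fam107a and Tmem130 and -0.17 for Fam107a and Padi3. The signs partly follow from how the genes were chosen.

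Markers of other cell types moved beside some of these differences. The 8 epithelial markers summed to 6415 to 6589.8 CPM in sgPBRM1 and 9530.2 to 9766 CPM in sgCT libraries at 72 h, and to 4269 to 4453 CPM in shATF3 and 6003 to 6237 CPM in pLKO libraries. Of 5 basal mammary markers, only Acta2 reached 1 CPM in NMuMG at 72 h, and the summed level was 44.5 to 50.9 CPM in sgPBRM1 and 23.0 to 25.6 CPM in sgCT libraries. It was 129 to 131 CPM in shATF3 and 22.9 to 28.8 CPM in pLKO libraries, with Krt14 and Oxtr at 0 counts in the sgPBRM1 group. Of 3 skeletal muscle markers only Acta1 was detected in NMuMG at 72 h, summing to 134 to 139 CPM in shATF3 and 14.0 to 16.5 CPM in pLKO libraries, with Myh1 and Myog at 0. Of 4 neural or glial markers only Mbp reached 1 CPM, and in 4T1 after 4 days the list summed to 31.0 to 33.6 CPM in shPBRM1 and 49.7 to 55.2 CPM in pLKO libraries, with Snap25 at 0 in both. Of 5 fibroblast markers only Pdgfra was detected in 4T1 after 4 days, at 29.4 to 33.4 CPM in shPBRM1 and 23.8 to 27.0 CPM in pLKO libraries, with Dcn, Lum, Col3a1 and Thy1 at 0. The basal list in 4T1 after 4 days was nearly all Krt14 and summed to 10.4 to 13.2 CPM in shPBRM1 and 15.6 to 18.1 CPM in pLKO libraries, with Krt5 at 0 in both. The part of these markers in the results was not tested.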

How the data were processed

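RNA-seq counts per gene were deposited by the authors as 3 tables covering 60 libraries, and no column of counts was left unused. Reads were handled with HISAT2, DESeq2, Trim Galore 0.6.7, STAR 2.7.10a and edgeR on mm10, per the submitters' processing notes, which do not say which tool made which table. NMuMG libraries were made, sequenced and analysed by a company, and 4T1 libraries came from a stranded mRNA kit, per the labels' protocols. From the counts, each table was fitted separately with edgeR 4.0.16 in R 4.3.3 (TMM factors, a filter at a minimum count of 10 and total of 15, quasi-likelihood test, Benjamini-Hochberg adjustment over all genes tested, threshold 0.05), over 35 comparisons. CPM are counts over the TMM-scaled library size. The SE is the log2 fold change over the square root of F. Levels over groups of 3 are mean ± SD. With 3 libraries against 3, an exact permutation test cannot go below 0.1, so the tests are those of the fit over all genes. Where a group held 0 counts, a bound was taken against 3 counts over the group, and ratios with few counts carry exact conditional binomial intervals (95%), which cover counting error only. Named genes were the 5 genes, the 2 nearest tested genes on either side, the 3 most alike in pattern and the members of the lists. The genes and lists were chosen with earlier results of these data known. Alternatives were RLE factors, library totals alone, no filter, a filter at 1 CPM in 3 libraries, a replicate block, only the groups compared, DESeq2 1.42.0 and each library left out in turn. The fit was tested on simulated data with changes put only into genes averaging above 2 CPM, so genes with few counts were not covered. Figures used Python 3.11.15 and matplotlib 3.10.9.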

Additional observations from a re-analysis of the deposited data

Results flagged for a closer look

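The difference between sgPBRM1 and sgCT cells changed from 24 to 72 h, by its own interaction test, for Fam107a and Padi3. The change was -0.69 ± 0.212 for Fam107a and -0.81 ± 0.252 for Padi3 (SE, adjusted p = 0.0102 and 0.0117, edgeR quasi-likelihood test). In the ATF3 experiment, the change of Wisp2 from 0 h differed between the libraries labelled ATF3 knockdown and pLKO cells. That difference was -2.36 ± 0.352 at 24 h and -1.64 ± 0.301 at 48 h (SE, same test, adjusted p = 1.39e-05 and 0.000345). For Fam107a that difference was 1.28 ± 0.259 at 48 h (SE, adjusted p = 0.000922) and 1.46 ± 0.259 at 72 h (SE, adjusted p = 0.000194). For Tmem130 it was 2.02 ± 0.561 at 72 h (SE, adjusted p = 0.0144), between a genotype difference of -1.02 ± 0.424 at 0 h that did not pass (SE, adjusted p = 0.0607) and one of 1.00 ± 0.368 at 72 h (SE, adjusted p = 0.0388). The Tmem130 value fell short of the threshold in a fit of the groups compared alone (adjusted p = 0.0820), without pLKO 0 h replicate 1 (1.81, adjusted p = 0.0512) and without shATF3 0 h replicate 2 (1.56, adjusted p = 0.0504).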

How the results depend on the processing

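Of 2572 values of the 5 genes under other settings, 45 lost a call, 28 gained one and 0 reversed. These include comparisons given above with no test, where 10 of the losses and 2 of the gains lie. At 0 h in the PBRM1 experiments the choice of the genes favoured no reversal. Counts of called genes moved by 0.804 to 1.16 times with 1 library left out and by 0.669 to 1.25 times under the other settings, so none moved past 1.5 times. Library totals alone shifted the median of all genes by more than 0.1 on the log2 scale in 9 of 35 comparisons, all of TGFβ1 against 0 h, and moved the share of higher calls by over 10 percentage points in 20, while RLE factors did neither in any comparison. Replicate numbers paired the libraries weakly if at all. Correlations of their deviations were -0.0253 to 0.0683 in the NMuMG PBRM1 experiment, -0.318 to 0.106 in the ATF3 experiment and -0.0455 to 0.0328 in 4T1. In the NMuMG PBRM1 experiment 22 of 36, most of them, correlated best with their own number, beside 8 of 30 in the ATF3 experiment and 2 of 12 in 4T1. A replicate block moved the counts of called genes by 0.949 to 1.04 times, and the only call on the 5 genes it removed was Tmem130 in the ATF3 experiment at 72 h (1.00, adjusted p = 0.0521). The cause was not tested. Depth limits the groups with few counts a library: Fam107a in 4T1 at 0 h in both genotypes (at most 2) and in shPBRM1 cells after 4 days (at most 7), Tmem130 in shPBRM1 cells (at most 5) and in sgPBRM1 cells at 72 h (at most 3), Wisp2 at 0 h in 4T1 pLKO (at most 2) and sgCT cells (at most 3), and Ckb at 0 h in sgCT cells (at most 1).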
